A study of Mus musculus with 8 samples.

Results

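The 32 genes described here encode sensors and a transcription factor of the unfolded protein response (UPR) and the proteins that fold, modify and dispose of secretory proteins in the endoplasmic reticulum (ER). They are a fixed list of gene symbols, and the rule has no threshold on a measured value, although the list was drawn up with earlier results of these data known. All 32 symbols were found among the 54532 listed genes, and all 32 passed the low-count filter that left 13981 genes for testing. The data are bulk mRNA sequencing of CD4+ T cells, the helper class of T lymphocytes, from the spleen of wild-type (WT) mice. Of 8 libraries, 4 came from cells treated with dimethyl succinate for 3 days and 4 from cells given vehicle. Dimethyl succinate is an ester of the metabolite succinate that is used to bring it into cells. The labels give no age, sex or strain, no activation of the cells and no dose, and do not say whether the 4 libraries of a group came from separate mice or cultures. The p-values below therefore measure only the spread between these libraries, which may be technical.

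Proteins bound for the cell surface or for secretion enter the ER through the Sec61 channel, are folded there by chaperones and disulfide isomerases, and are sent to the proteasome by ER-associated degradation (ERAD) when folding fails. When unfolded proteins build up, the sensors IRE1 (Ern1), ATF6 and PERK start the UPR: IRE1 splices Xbp1 mRNA, and the spliced XBP1 and cleaved ATF6 proteins raise transcription of chaperone and ERAD genes. In lymphocytes this system is best known from plasma cells, which build a large ER to secrete antibody, and T cells also use it when they become activated and secrete cytokines. The data hold 1 count per gene, so spliced and unspliced Xbp1 mRNA cannot be told apart, and cleavage or phosphorylation of the sensor proteins was not measured.

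XBP1 and ATF6 act through short promoter elements, and exact matches to these elements in the members' promoters are shown as a description. Such a search misses near matches and sites farther away, so a gene without a match may still carry an element. Promoter windows of 300 bases, most of them before the transcription start, were taken from RefSeq on build GRCm38.p6, and 25 of the 32 genes had at least 1. The ER stress response element (ERSE) was searched as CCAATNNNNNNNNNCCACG, its type II form (ERSE-II) as ATTGG and CCACG separated by 1 base, and the UPR element (UPRE) as TGACGTGG, all on both strands and by exact letters. ERSE and ERSE-II share the CCACG end, whose reverse complement lies in the UPRE letters, but no reported matches overlapped. Capitals mark the fixed letters of each element, and every site is written in the orientation of the element.
Calr ERSE chr8:84847075-84847093 (opposite strand): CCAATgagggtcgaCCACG
Canx ERSE chr11:50325800-50325818 (gene strand): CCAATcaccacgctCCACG
Creld2 ERSE chr15:88819520-88819538 (opposite strand): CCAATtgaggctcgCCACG
Derl3 ERSE chr10:75893242-75893260 (opposite strand): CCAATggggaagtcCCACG
Dnajb11 ERSE-II chr16:22857852-22857862 (gene strand): ATTGGcCCACG
Dnajc3 ERSE chr14:118937827-118937845 (gene strand): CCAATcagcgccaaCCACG
Herpud1 ERSE-II chr8:94386377-94386387 (gene strand): ATTGGgCCACG
Hsp90b1 ERSE chr10:86705638-86705656 (gene strand): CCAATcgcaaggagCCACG
Hsp90b1 ERSE chr10:86705533-86705551 (opposite strand): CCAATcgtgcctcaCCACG
Hspa5 ERSE chr2:34772025-34772043 (gene strand): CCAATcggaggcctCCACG
Pdia6 ERSE chr12:17266491-17266509 (gene strand): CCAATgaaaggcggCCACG
Syvn1 ERSE chr19:6046532-6046550 (gene strand): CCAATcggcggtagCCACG
Txndc5 UPRE chr13:38528045-38528052 (gene strand): TGACGTGG

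An ERSE was matched in 9 of the 25 genes, in 9 of their 28 windows, against 39 of all 32851 RefSeq windows (0.119%). ERSE-II was matched in 2 of the 25 genes and 2 of the 28 windows, against 12 of all windows (0.0365%). The UPRE was matched in 1 gene and 1 of the 28 windows, against 222 of all windows (0.676%). The UPRE match of Txndc5 lay at 1 of several listed starts of that gene, in a window inside the annotated gene (chr13:38500079-38528824). Hspa5, which encodes the central ER chaperone BiP, held its ERSE between 65 and 47 bases before the RefSeq start. The annotated gene (chr2:34771970-34777547) begins earlier, so this site also lies inside it. Hsp90b1, which encodes the ER form of HSP90 (GRP94), was the only member with a pair of exact ERSE matches. The whole windows of Hspa5 and Hsp90b1 follow because these genes carried the largest counts among the HSP70 and HSP90 chaperones, with the fixed letters of the ERSE in capitals. A match describes letters and is not a measured binding site. No window was used for Manf, Derl1, Atf6, Ssr2, Sec61a1, Hyou1 and Ostc.
Hspa5 chr2:34771840-34772139 (+ strand): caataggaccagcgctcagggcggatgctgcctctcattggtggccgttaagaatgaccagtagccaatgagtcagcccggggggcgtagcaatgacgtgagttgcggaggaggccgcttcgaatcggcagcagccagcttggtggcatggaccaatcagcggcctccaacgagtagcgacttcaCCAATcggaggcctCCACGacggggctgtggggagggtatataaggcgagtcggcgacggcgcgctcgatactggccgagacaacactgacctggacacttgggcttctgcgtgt
Hsp90b1 chr10:86705395-86705694 (- strand): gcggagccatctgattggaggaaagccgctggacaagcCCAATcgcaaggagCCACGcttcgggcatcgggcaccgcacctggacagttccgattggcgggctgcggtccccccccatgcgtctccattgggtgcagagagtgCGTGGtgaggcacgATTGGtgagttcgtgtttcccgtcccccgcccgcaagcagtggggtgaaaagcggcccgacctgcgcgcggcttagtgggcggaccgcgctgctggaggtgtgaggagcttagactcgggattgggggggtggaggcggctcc

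**Figure D1:**
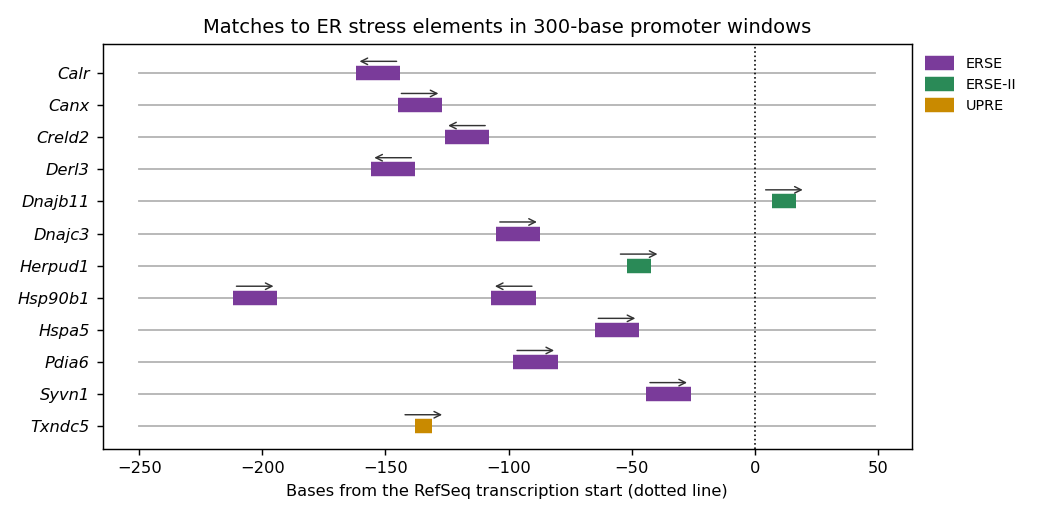
Positions of exact matches to ERSE, ERSE-II and UPRE in the RefSeq promoter windows of the members that hold 1, in bases from the transcription start (x axis), 1 gene a line. Hsp90b1 holds 2 ERSE matches and Dnajb11 is the gene whose match lies after the start, from 7 to 17 bases.

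Libraries held 14663698 to 16688854 counts under dimethyl succinate and 13407295 to 15738869 under vehicle. Vehicle replicate 4 stood apart from the other 7 libraries. Mitochondrial genes took 0.252% of its counts, against 1.16% to 1.48% in the other 7, and its mean correlation with the other libraries across genes was 0.981, against 0.989 to 0.991. Counts of members and fold changes are given with it and without it, and means and SDs under vehicle include it. The CD4 T-cell label was met by its markers: Cd4 averaged 471 ± 15.5 CPM (counts scaled to library size) under dimethyl succinate and 415 ± 65.5 CPM under vehicle (SD, n = 4 each), with 317 CPM in vehicle replicate 4. Of the 5 markers on that list, Cd4, Cd3e, Trac and Trbc2 were lowest in vehicle replicate 4 and Cd3d was highest there. B-cell markers summed to at most 5.01 CPM in any library, and the CD8 T-cell, myeloid, NK-cell and erythroid lists to at most 7.54, 10.7, 2.19 and 2.21 CPM. Among plasma-cell markers, Jchain and Mzb1 averaged below 1 CPM in both groups and Tnfrsf17 was at 0 in all 4 dimethyl succinate libraries and at 0.139 CPM in vehicle replicate 4. The plasma-cell list of 7 genes summed to 131 to 138 CPM under dimethyl succinate and 93.0 to 140.2 CPM under vehicle, and most of it was Ighm and Prdm1, of which T cells also express Prdm1. In bulk samples, fewer cells of a type and less RNA per cell cannot be told apart.

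The first question was how strongly these cells expressed the ER folding machinery, which needs a scale per transcript length, so the authors' FPKM values (fragments per kilobase of gene length, scaled to library depth) were used. Chaperones and disulfide isomerases that reside in the ER lumen or its membrane led the order. Calr, the lectin chaperone calreticulin, stood at 222.6 ± 4.21 FPKM under dimethyl succinate and 223.9 ± 4.34 FPKM under vehicle (SD, n = 4 each). Hspa5 followed with 174 ± 7.14 FPKM under dimethyl succinate and 198 ± 41.3 FPKM under vehicle. Next came Pdia3 (132 ± 11.7 FPKM under dimethyl succinate, 160.3 ± 33.9 under vehicle), P4hb (137 ± 6.60 under dimethyl succinate, 143 ± 16.6 under vehicle) and Canx (123 ± 8.31 under dimethyl succinate, 138 ± 21.6 under vehicle). Under vehicle, the means of neighbours from Hspa5 to Canx differed by less than the larger SD of each pair, an SD that includes vehicle replicate 4. In vehicle replicates 1 to 3 alone, Hspa5 (175 to 179.8 FPKM) lay above Pdia3 (136 to 154 FPKM). These 5 were the members above 100 FPKM, 23 lay between 10 and 100 FPKM, and Derl2, Atf6, Ern1 and Derl3 lay below 10 FPKM. The sensor mRNAs were thus among the scarce members: Atf6 averaged 7.19 FPKM under dimethyl succinate and 7.24 FPKM under vehicle, and Ern1 averaged 3.22 FPKM under dimethyl succinate and 3.25 FPKM under vehicle. Xbp1 was more abundant, at 41.1 ± 1.31 FPKM under dimethyl succinate and 43.5 ± 2.57 FPKM under vehicle. Derl3, a derlin that XBP1 induces strongly in secretory cells, was the lowest, at 0.478 ± 0.118 FPKM under dimethyl succinate and 0.414 ± 0.219 FPKM under vehicle, which rested on 5 to 22 counts a library.

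**Figure D2:**
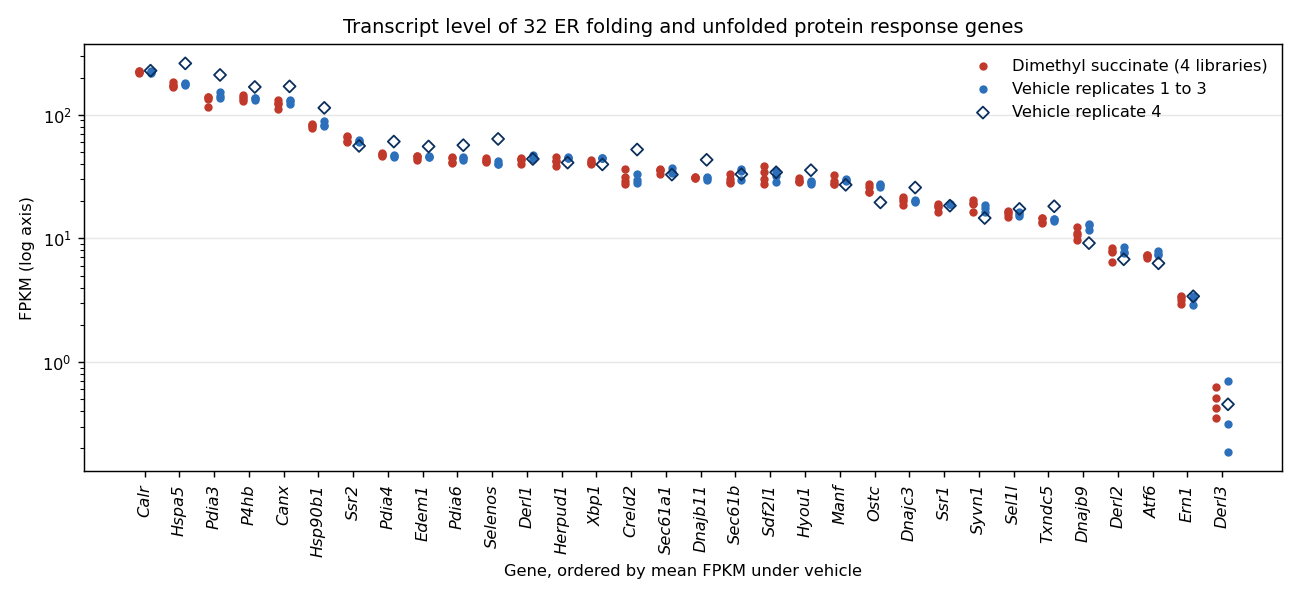
FPKM of the 32 genes on a log axis, ordered by mean under vehicle, with 1 point per library for dimethyl succinate and for vehicle. Levels run from Calr above 200 FPKM to Derl3 below 1 FPKM, and vehicle replicate 4 lies above the other libraries for Hspa5, Pdia3, Canx and Creld2.

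Treatment with dimethyl succinate did not shift the module past the test. None of the 32 members was called by edgeR's quasi-likelihood test at an adjusted p of 0.05, where 0 of 13981 genes were called (0%), and DESeq2 (4 genes called) and limma-voom (0 called) called none of the members either. The smallest adjusted p among the members was 0.802. At an unadjusted p under 0.05, edgeR and DESeq2 each counted 1 member and limma-voom counted 0, against 805 genes (5.76%) in edgeR. That member in edgeR was Pdia3, which lay lower. Log2 fold changes of dimethyl succinate over vehicle lay below 0 for 25 members and above 0 for 7, whereas 50.4% of all genes lay below 0. The median member stood at -0.060 (range -0.27 to 0.19), against -0.0011 over all genes. No member had groups that did not overlap, against 4.82% of all genes.

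The lean towards lower values was smaller without vehicle replicate 4. In the fit of the other 7 libraries, 17 members lay below 0 and 15 above, against 50% of all genes below 0. The median member stood at -0.018 (range -0.19 to 0.22), and 12 members changed sign. Again no member was called, although 28 of 14232 genes were (0.197%), of which 18 lay higher and 10 lower, and the smallest adjusted p of a member was 0.488. At an unadjusted p under 0.05, 2 members lay lower, Xbp1 and Dnajb9, where 8.54% of all genes lay on either side at that threshold. The standard error was smaller in 31 of the 32 members, with a median of 0.0545 on the log2 scale, against 0.0868 with all 8 libraries.

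The intervals of the fold changes show how large a shift could go unseen, given only the spread between these libraries. As for the p-values, that spread may be technical. With all 8 libraries, the 95% interval of the fold change lay within 1.5-fold of equality for 30 members, all except Creld2 and Derl3. It lay within 1.25-fold for 21 of the 32. Of all 13981 genes tested, a set that also holds genes below 10 CPM, 10026 lay within 1.5-fold and 6002 within 1.25-fold. Without vehicle replicate 4, the interval lay within 1.25-fold for 29 members, all except Dnajb9, Derl3 and Sec61b. Across those 7 libraries, which mix both groups, CPM of a member varied with a median coefficient of variation of 4.75%, from 1.86% for Calr to 40.3% for Derl3. Counting error alone would give a median of 2.45%. Over the 8915 genes at or above 10 CPM, the median was 6.34%.

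**Figure D3:**
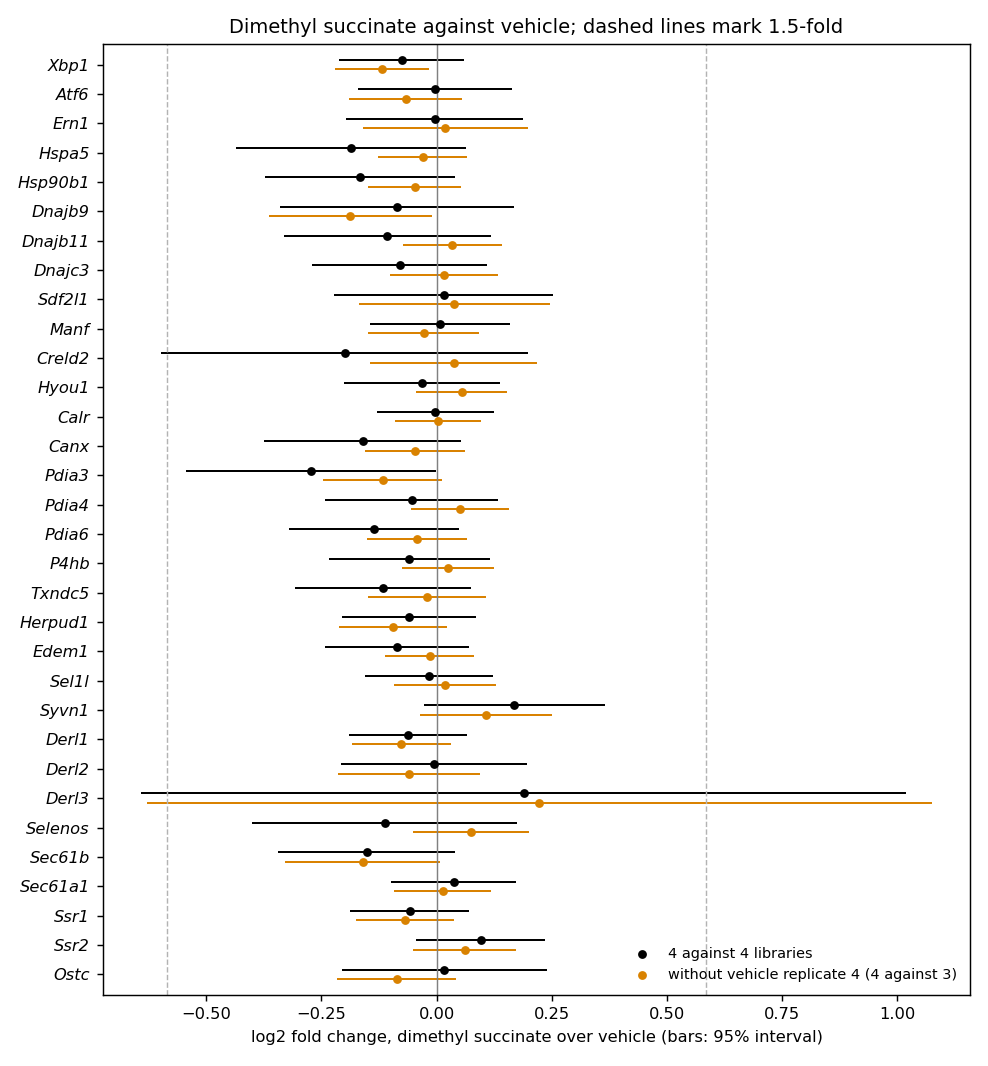
Log2 fold change of each member, dimethyl succinate over vehicle, with 95% intervals, for all 8 libraries and without vehicle replicate 4. Dashed lines mark 1.5-fold, and with all 8 libraries the intervals of Creld2 and Derl3 reach past them.

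Ern1, Atf6 and the IRE1 target Xbp1 formed the first class, called the sensor class here. In it, mRNA of the UPR transcription factor Xbp1 was the member whose groups came closest to separating. Xbp1 (chr11:5520659-5525893, plus strand) had 136, 139.5, 133 and 130.1 CPM under dimethyl succinate, against 147, 145, 146 and 129 CPM under vehicle. The treated libraries lay below vehicle replicates 1 to 3 and vehicle replicate 4 lay below all of them. The log2 fold change was -0.076 ± 0.0615 (SE, adjusted p = 0.812 in edgeR) with all 8 libraries. Without vehicle replicate 4 it was -0.12 ± 0.0487 (adjusted p = 0.488 in edgeR), and Xbp1 was then the 1 member whose groups did not overlap, where 9.63% of all genes did not. Atf6, the membrane-bound transcription factor that is cleaved under stress, had 64.2 to 68.9 CPM under dimethyl succinate, against 68.0 to 72.9 CPM in vehicle replicates 1 to 3 and 58.0 CPM in vehicle replicate 4. Its log2 fold change was -0.0041 ± 0.0763 with all 8 libraries and -0.067 ± 0.0586 without vehicle replicate 4. Ern1, the kinase and endonuclease that splices Xbp1, had 24.3 to 28.2 CPM under dimethyl succinate and 23.7 to 27.9 CPM under vehicle, and its log2 fold change was -0.0038 ± 0.088 with all 8 libraries and 0.019 ± 0.0864 without vehicle replicate 4.

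Hspa5 was the most abundant of the HSP70 and HSP90 chaperones, and its fold change was several times smaller without vehicle replicate 4. Hspa5 (chr2:34771970-34777547, plus strand) had 709.7, 743, 728 and 781 CPM under dimethyl succinate, against 745, 765, 758 and 1100 CPM under vehicle. Vehicle replicate 4 was high, and the other 7 libraries overlapped. The log2 fold change was -0.19 ± 0.114 (SE, adjusted p = 0.802 in edgeR) with all 8 libraries and -0.030 ± 0.0458 without vehicle replicate 4. Hsp90b1 (chr10:86690209-86705509, minus strand) had 316, 338, 336 and 331 CPM under dimethyl succinate, against 335, 329, 361 and 458 CPM under vehicle. Its highest library was again vehicle replicate 4, and its log2 fold change was -0.17 ± 0.0945 with all 8 libraries and -0.048 ± 0.0479 without it. Exons of the opposite strand covered 10.3% of Hsp90b1, and no source used here states whether the counting used strand.

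The partners of BiP were mostly arranged in the same way. Creld2, a secreted UPR-induced protein of the ER, had 50.1, 37.9, 40.0 and 43.1 CPM under dimethyl succinate, against 38.5, 45.8, 40.4 and 71.5 CPM under vehicle. Vehicle replicate 4 stood 1.72 times as high as the mean of the other vehicle libraries, the largest such ratio of any member, and the groups overlapped. The log2 fold change of Creld2 was -0.20 ± 0.18 with all 8 libraries and 0.037 ± 0.0867 without that library. Hyou1, a large HSP70 relative that helps BiP exchange nucleotide, had a log2 fold change of -0.031 ± 0.0771 with all 8 libraries and 0.055 ± 0.0473 without vehicle replicate 4. The J-domain co-chaperones Dnajb11 (ERdj3) and Dnajc3 (p58IPK) had log2 fold changes of -0.11 ± 0.103 and -0.080 ± 0.0864 with all 8 libraries, and both turned positive without vehicle replicate 4, at 0.034 and 0.016. Sdf2l1, which works with ERdj3, and Manf, a BiP-binding protein that is also secreted, were near 0, at 0.016 ± 0.109 and 0.0068 ± 0.0693 with all 8 libraries and 0.039 and -0.028 without vehicle replicate 4.

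Dnajb9 (ERdj4), a J-domain protein that helps BiP repress IRE1 and is a target of XBP1, was arranged the other way. In Manf vehicle replicate 4 was also the lowest library, at 95.5 CPM, and in Sdf2l1 it lay between the others. Of the 9 genes of this class, vehicle replicate 4 was the highest library in 6 and the lowest in 2. Dnajb9 had 28.4, 27.3, 31.6 and 25.1 CPM under dimethyl succinate, against 32.7, 30.0, 33.4 and 23.3 CPM under vehicle. Vehicle replicate 4 was the lowest of the 8 libraries, and the groups overlapped with it and without it. Its log2 fold change was -0.087 ± 0.116 with all 8 libraries and -0.19 ± 0.085 (adjusted p = 0.544 in edgeR) without vehicle replicate 4. Of its 50-base stretches of transcript, 5.5% also occurred in other genes, Gm6568 among them, so some reads may have been split.

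The lectin chaperones bind glycoproteins through their sugar chains, and calreticulin and calnexin are paired forms of it, soluble and membrane-bound. Calr had 645.8, 628, 651 and 659 CPM under dimethyl succinate, against 631, 657, 646 and 654 CPM under vehicle. Calr was level in all 8 libraries, vehicle replicate 4 included, and its log2 fold change was -0.0029 ± 0.0575 with all 8 libraries and 0.0027 ± 0.0442 without that library. Canx had 532, 587, 578 and 628 CPM under dimethyl succinate, against 606, 619.7, 575 and 796 CPM under vehicle. Its highest library was vehicle replicate 4, and its log2 fold change was -0.16 ± 0.0978 with all 8 libraries and -0.047 ± 0.0515 without it.

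The disulfide isomerases, which form and reshuffle disulfide bonds, lay below 0 in 5 of 5, with a median log2 fold change of -0.12. Pdia3 (ERp57, chr2:121413775-121438687, plus strand), which works with the lectin chaperones and in loading of MHC class I, had 364, 440.4, 426 and 442 CPM under dimethyl succinate, against 429, 486, 446 and 659 CPM under vehicle. Dimethyl succinate replicate 1 was the lowest library and vehicle replicate 4 the highest, and vehicle replicate 1 lay within the treated libraries. Pdia3 had the most negative log2 fold change of the members, at -0.27 ± 0.124 (SE, 95% interval -0.54 to -0.0027, adjusted p = 0.802 in edgeR). Without vehicle replicate 4 it was -0.12 ± 0.0609 (adjusted p = 0.627 in edgeR). P4hb (PDI), Pdia4 (ERp72), Pdia6 (P5) and Txndc5 (ERp46) had log2 fold changes of -0.059, -0.054, -0.14 and -0.12 with all 8 libraries, and of 0.024, 0.051, -0.043 and -0.021 without that library. In each of the 5 genes vehicle replicate 4 was the highest of the 8 libraries.

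The ERAD genes were spread on both sides of 0, with a median log2 fold change of -0.038, and 2 of 8 lay above 0. Syvn1, the ubiquitin ligase HRD1 at the core of ERAD, had 99.0, 91.2, 92.5 and 78.3 CPM under dimethyl succinate, against 89.6, 78.0, 83.9 and 69.6 CPM under vehicle. The treated libraries tended to be the higher ones but overlapped vehicle, whose replicate 4 was the lowest of all. Its log2 fold change was 0.17 ± 0.0899 (adjusted p = 0.802 in edgeR) with all 8 libraries and 0.11 ± 0.0681 without vehicle replicate 4. Sel1l, the partner of HRD1 in the same complex, had a log2 fold change of -0.016 ± 0.0629 with all 8 libraries and 0.018 ± 0.0526 without vehicle replicate 4. Edem1, which picks out misfolded glycoproteins, had 281 to 303 CPM under dimethyl succinate, against 296 to 299 CPM in vehicle replicates 1 to 3 and 357 CPM in vehicle replicate 4. Selenos, a selenoprotein that links derlins to the ATPase p97, had 61.7 to 66.7 CPM under dimethyl succinate, against 59.7 to 62.1 CPM in vehicle replicates 1 to 3 and 94.1 CPM in vehicle replicate 4. In both genes that library lay above all others. The log2 fold change of Edem1 was -0.086 with all 8 libraries and -0.015 without vehicle replicate 4, and that of Selenos was -0.11 with all 8 libraries and 0.075 without it. Herpud1, a scaffold of the HRD1 complex, lay at -0.060 ± 0.0662 with all 8 libraries and -0.094 ± 0.0557 without vehicle replicate 4. Derl1 and Derl2, membrane proteins through which ERAD substrates leave the ER, lay at -0.062 and -0.0054 with all 8 libraries and at -0.076 and -0.061 without vehicle replicate 4. Derl3, with 5 to 22 counts a library, had a log2 fold change of 0.19 ± 0.383 (95% interval -0.64 to 1.02), an interval that holds 1.5-fold shifts either way, and 0.22 ± 0.414 without vehicle replicate 4. Its coefficient of variation over the 7 libraries was 40.3%, of which counting alone would give 26.9%.

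The 5 translocon and glycosylation members stood apart from the luminal chaperones in vehicle replicate 4. That library was the highest of the 8 for none of them and the lowest for 3. The list of 20 other translocon, signal peptidase and oligosaccharyltransferase genes, described below, did not share this. In it vehicle replicate 4 was the highest for 8 genes and the lowest for 5. Ostc, a subunit of the oligosaccharyltransferase that attaches sugar chains, had 66.1, 72.1, 65.6 and 75.7 CPM under dimethyl succinate, against 74.6, 75.8, 72.2 and 53.7 CPM under vehicle. Its vehicle replicate 4 was 0.724 times the mean of the other vehicle libraries, the smallest ratio among the members. The log2 fold change of Ostc was 0.017 ± 0.102 with all 8 libraries and -0.086 ± 0.0618 without vehicle replicate 4. Sec61b, the beta subunit of the Sec61 channel, had 36.5, 38.6, 35.9 and 42.8 CPM under dimethyl succinate, against 38.0, 46.5, 44.4 and 42.0 CPM under vehicle. The groups overlapped, and the log2 fold change was -0.15 ± 0.0875 with all 8 libraries and -0.16 ± 0.0808 without vehicle replicate 4. Of the 50-base stretches of Sec61b, 17.4% also occurred in other genes, Gm10320 among them, so its count is the least certain of the members in this respect. The pore-forming subunit Sec61a1 and the translocon-associated proteins Ssr1 and Ssr2 had log2 fold changes of 0.037 ± 0.0616, -0.058 ± 0.0587 and 0.096 ± 0.0638 with all 8 libraries, and of 0.013, -0.069 and 0.062 without vehicle replicate 4. Exons of the opposite strand covered 12.8% of Ssr2 and 8.16% of Sec61a1.

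**Figure D4:**
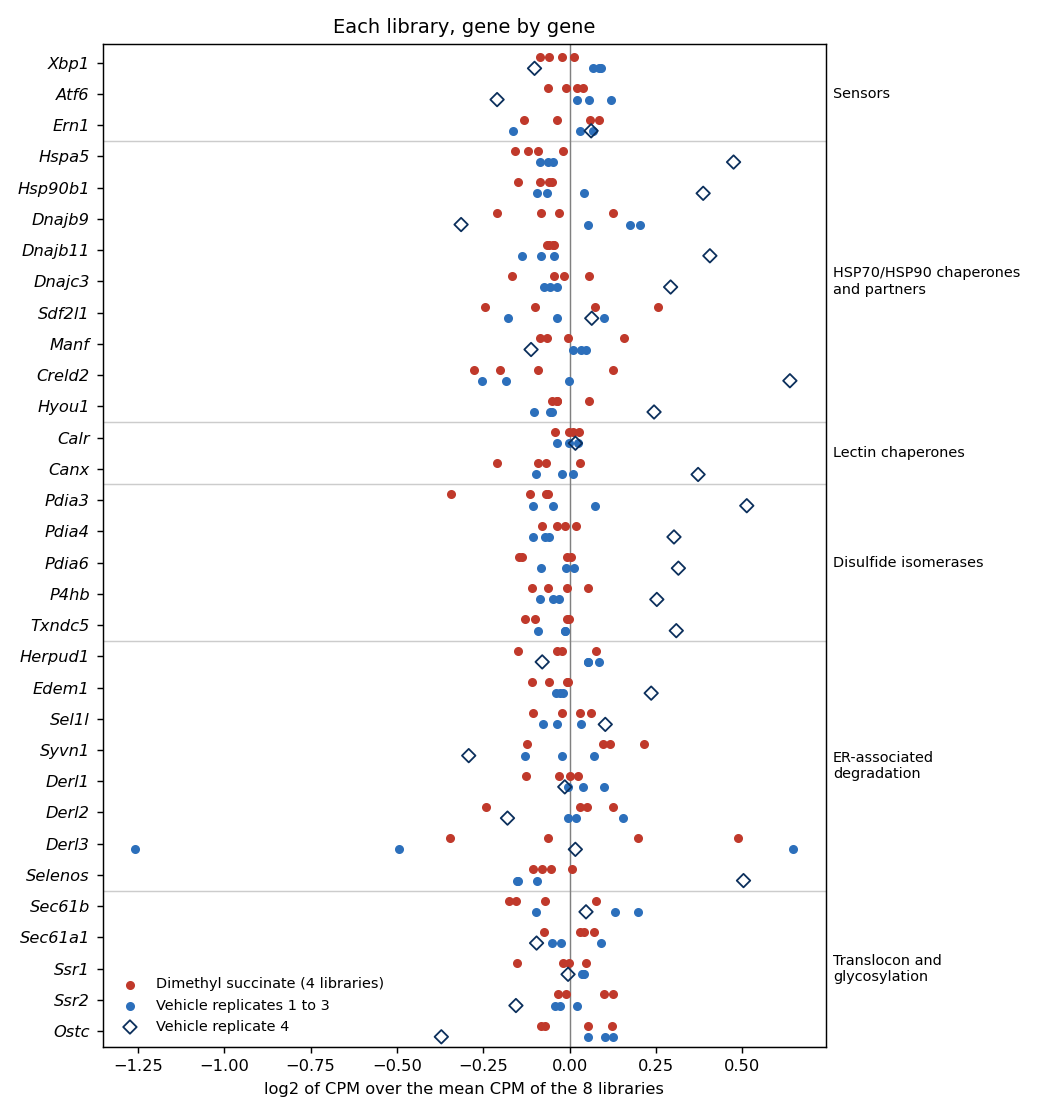
Log2 of CPM over the mean CPM of the 8 libraries, for each member and library, with dimethyl succinate and vehicle libraries marked and vehicle replicate 4 set off from the other vehicle libraries. Vehicle replicate 4 lies to the right for Hspa5, Creld2, Pdia3 and Selenos and to the left for Ostc, Atf6 and Dnajb9.

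For most chaperones the library that stood apart was the same one, vehicle replicate 4. The members took 0.573%, 0.590%, 0.588% and 0.600% of the counts under dimethyl succinate, against 0.590%, 0.601%, 0.597% and 0.694% under vehicle. Vehicle replicate 4 was the highest library in 15 members (46.9%) and the lowest in 8 (25%), where over all genes it was the highest in 29% and the lowest in 29.4%. This was not particular to the members. In lists outside the module, described below, it was the highest in 8 of 13 other oxidative folding genes, 10 of 18 other ERAD genes and 9 of 16 heat shock genes. The counts were 4 of 7 for glycan trimming, 5 of 12 for the PERK and ATF4 arm, 8 of 20 for other translocon genes and 4 of 9 for other regulators. The same library was the lowest in 1 of the 13 oxidative folding genes and 2 of the 18 ERAD genes, but in 6 of the 16 heat shock genes. It was the lowest in 2 of 7 for glycan trimming, 1 of 12 for the PERK and ATF4 arm, 5 of 20 for other translocon genes and 3 of 9 for other regulators. Vehicle replicate 4 exceeded the mean of the other vehicle libraries by 1.2 times or more in 14 members (43.8%), against 23.3% of all genes. The roles differed in this. The median ratio was 1.27 for the disulfide isomerases, 1.27 for the HSP70 and HSP90 chaperones and 1.17 for the lectin chaperones. It was 1.03 for ERAD genes, 0.932 for the translocon and glycosylation genes and 0.881 for the sensor class, where Atf6 stood at 0.826, Xbp1 at 0.881 and Ern1 at 1.06. The same library had fewer mitochondrial counts, less Cd4 (317 CPM) and less Cd3e (130.2 CPM, against 185 ± 12.5 CPM under dimethyl succinate and 175 ± 30.1 CPM over all 4 vehicle libraries) and more Cd3d (207 CPM, against 167 ± 4.75 CPM under dimethyl succinate and a mean of 181 CPM over all 4 vehicle libraries), and the part of these in the chaperone levels was not tested. Its plasma-cell marker sum was the lowest of the 8 libraries, at 93.0 CPM, with Ighm at 50.5 CPM, while Mzb1 at 0.626 CPM and Tnfrsf17 at 0.139 CPM were not lowest there.

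**Figure D5:**
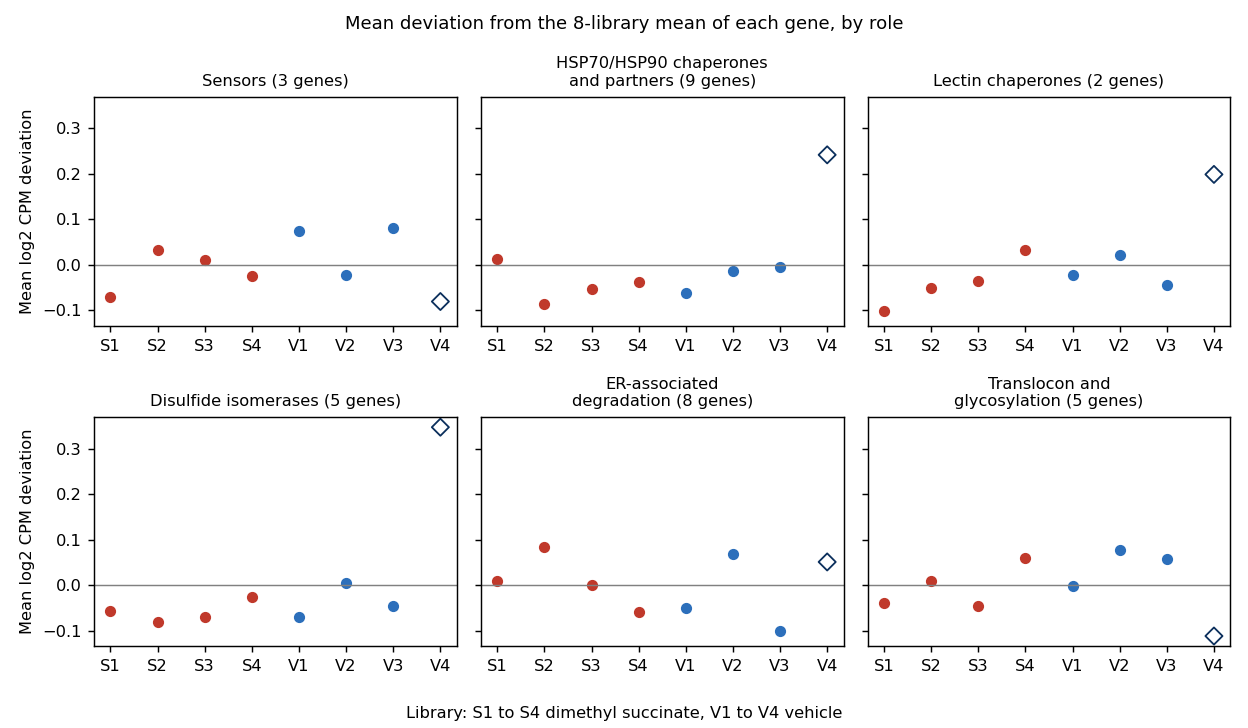
Mean over the genes of a role of log2 CPM minus the gene's mean over the 8 libraries, 1 panel per role (the sensor panel holds Ern1, Atf6 and Xbp1) and 1 point per library, dimethyl succinate (S1 to S4) left of vehicle (V1 to V4). Point V4 lies at 0.347 for the disulfide isomerases and 0.242 for the HSP70 and HSP90 chaperones, and at -0.112 for the translocon and glycosylation genes.

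Promoter letters gave a description of the same kind. The 11 genes with an ERSE or ERSE-II match had a median log2 fold change of -0.11 with all 8 libraries and 0.0027 without vehicle replicate 4, and that library was the highest in 7 and the lowest in 1 of them. The 14 genes with a window and no such match had medians of -0.067 with all 8 libraries and -0.018 without it, and it was the highest in 7 and the lowest in 2. Across these classes the median log2 ratio of vehicle replicate 4 to the other vehicle libraries was 0.35 with a match and 0.11 without. Hspa5, Hsp90b1, Creld2, Canx, Pdia6, Dnajb11 and Dnajc3 are the genes with a match in which that library was the highest, and Calr, which also holds an ERSE, was level. Syvn1 also has a match and had that library as its lowest. In Herpud1 and Derl3, which have a match too, that library was neither highest nor lowest. The 7 genes without a window had a median log2 fold change of 0.0068, and vehicle replicate 4 was the lowest library in 5 of them. The difference between the classes was not tested.

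The rest of the ER stress network, read from lists of genes outside the module, gave no called gene in any list by edgeR at an adjusted p of 0.05, with all 8 libraries or without vehicle replicate 4. In the PERK and ATF4 arm, which slows translation and induces amino acid and redox genes, 3 of 12 genes lay above 0 and 9 below. An unadjusted p under 0.05 in edgeR was reached by 1 of the 12, against 5.76% of all genes. That gene was Sesn2, a sestrin that restrains mTORC1, with 201, 199.8, 193 and 202 CPM under dimethyl succinate, against 179.8, 180.4, 182 and 175 CPM under vehicle. Its groups did not overlap, where 4.82% of all genes did not. Its log2 fold change was 0.15 ± 0.0521 (adjusted p = 0.802 in edgeR) with all 8 libraries and 0.14 (adjusted p = 0.322 in edgeR) without vehicle replicate 4. Atf4, the transcription factor of this arm, and Ddit3 (CHOP), its pro-apoptotic target, had log2 fold changes of -0.0012 ± 0.0551 and -0.029 ± 0.101 with all 8 libraries and of 0.0012 and -0.058 without vehicle replicate 4. Chac1, a glutathione-degrading ATF4 target, lay at -0.17 ± 0.0899 with all 8 libraries and -0.20 without vehicle replicate 4. Without that library 4 genes of the list lay above 0 and 8 below. Sesn2, Ddit4 (0.15) and Chac1 then had an unadjusted p under 0.05 in edgeR, where 8.54% of all genes did. Ddit4, an mTORC1 inhibitor, is named after its values were seen.

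Among 20 other genes of the translocon, signal peptidase and oligosaccharyltransferase, 7 lay above 0 and 13 below, against 6 above and 14 below without vehicle replicate 4. Of the 20, 2 lay lower at an unadjusted p under 0.05 in both edgeR fits. Over all genes, 5.76% had such a p on either side with all 8 libraries and 8.54% without vehicle replicate 4. Spcs3, a signal peptidase subunit, had 159.9, 176, 190.2 and 187 CPM under dimethyl succinate, against 203, 193, 198 and 218 CPM under vehicle. Ssr3, a subunit of the translocon-associated complex that also holds Ssr1 and Ssr2, had 224, 259.6, 256 and 255 CPM under dimethyl succinate, against 266, 277, 282 and 274 CPM under vehicle. The groups of both genes did not overlap, where 4.82% of all genes did not. Their log2 fold changes were -0.19 ± 0.0685 and -0.14 ± 0.0621 (adjusted p = 0.802 for both in edgeR). Without vehicle replicate 4 these were -0.15 and -0.14 (adjusted p = 0.385 and 0.38 in edgeR).

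With all 8 libraries, the remaining lists held no gene at an unadjusted p under 0.05 except Hspa1b in the heat shock list. Without vehicle replicate 4, Hspa1b no longer had one, and Qsox1, Mogs, Rnf139 and Hsph1 did. Of these, the sulfhydryl oxidase Qsox1 (0.20, against 0.095 with all 8 libraries) and the HSP110 chaperone Hsph1 (0.14, against -0.039 with all 8 libraries) are named after their values were seen.

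Most of the tallies moved with that library. Of 13 other oxidative folding genes 2 lay above 0 and 11 below with all 8 libraries, and 5 above and 8 below without vehicle replicate 4. The membrane oxidoreductases Tmx1 and Tmx4 lay at -0.18 and -0.10 with all 8 libraries and at -0.14 and -0.083 without vehicle replicate 4. The groups of Tmx4 did not overlap in either fit. Over all genes, 4.82% did not with all 8 libraries and 9.63% without vehicle replicate 4. Of 18 other ERAD genes 3 lay above 0 and 15 below with all 8 libraries, and 7 above and 11 below without vehicle replicate 4. The deglycosylating enzyme Ngly1 and the ligase Rnf139 lay at -0.23 and -0.17 with all 8 libraries and at -0.17 and -0.22 without it. Of 7 glycan-trimming genes 3 lay above 0 and 4 below with all 8 libraries, and 6 above and 1 below without vehicle replicate 4. Uggt1, which tags unfolded glycoproteins, and the glucosidase Mogs lay at -0.061 and 0.065 with all 8 libraries and at 0.0077 and 0.13 without it. Of 9 other regulators, which are ATF6 relatives, their proteases and promoter partners, 4 lay above 0 and 5 below with all 8 libraries, and 8 above and 1 below without vehicle replicate 4. Among them the CCAAT-binding subunits Nfya and Nfyc lay at 0.14 and 0.17 with all 8 libraries and at 0.075 and 0.038 without it.

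In the cytosolic and mitochondrial heat shock list of 16 genes, 7 lay above 0 and 9 below with all 8 libraries, and 10 above and 6 below without vehicle replicate 4. Its inducible HSP70 gene Hspa1b had 12.1, 8.29, 11.4 and 10.9 CPM under dimethyl succinate, against 8.82, 8.85, 9.05 and 7.10 CPM under vehicle. The groups overlapped, and its log2 fold change was 0.33 ± 0.14 (adjusted p = 0.802 in edgeR) with all 8 libraries and 0.26 (adjusted p = 0.624 in edgeR) without vehicle replicate 4. Its near-identical neighbour Hspa1a had a log2 fold change of 0.40 ± 0.193 with all 8 libraries and 0.40 without vehicle replicate 4, at 3.46 CPM under dimethyl succinate and 2.61 CPM under vehicle, and reads of this pair may have been split between them.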

How the data were processed

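Bulk mRNA-seq libraries of spleen CD4+ T cells were compared, 4 with dimethyl succinate and 4 with vehicle, which the file headers call DMSO. Libraries were aligned with HISAT2 2.0.5, per the submitters' processing notes, and the counting tool, annotation, build and strand setting are not given in the sources used here. Start or end coordinates of 99.17% of 54409 matched genes equalled GENCODE M21, and the build was therefore taken to be GRCm38. The authors deposited raw counts per gene, FPKM per listed gene length, group means (a normalised signal), log2 fold changes, p-values and adjusted p-values, and gene lengths in base pairs, per the file headers.

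The deposited counts were fitted with edgeR 4.0.16 in R 4.3.3 over all genes kept by filterByExpr (minimum count 10), with TMM scaling, the robust quasi-likelihood F test, two-sided, and Benjamini-Hochberg adjustment at 0.05. The tests were checked on simulated data. CPM used TMM-scaled totals, and log2 CPM a prior count of 2. Standard errors come from the F statistic and intervals cover 95%. FPKM served for levels between genes. In the authors' deposited table, a total of 25 members had a log2 fold change below 0, all 32 signs equalled those of the edgeR fit, and the smallest adjusted p was 0.8149. The counting error of a member was taken from its mean count over the libraries other than vehicle replicate 4. Its median was 2.45%, and it covers counting error only.

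Alternatives were RLE, upper-quartile and total scaling, 2 other filters, DESeq2 1.42.0, limma-voom (limma 3.58.1), a replicate block and leaving out each library. All 32 members are named, and of each other list the 2 genes with the smallest unadjusted p, with Atf4 and Ddit3. The members, roles and lists were chosen with earlier results of these data known.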

Additional observations from a re-analysis of the deposited data

Results flagged for a closer look

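Of 66 groups of 4 libraries examined, 13 held a library far from the other 3 by Dixon's ratio, where chance gives about 1 in 20 groups, or 3.3 of 66. In 12 of the 13 it was vehicle replicate 4, which was the highest in 9 and the lowest in 3. Flags in the same library are not independent of each other. The share of flagged groups over all genes was not counted, so the excess is not shown to concern the members. Over all genes vehicle replicate 4 was the highest library in 29% and the lowest in 29.4%. Among the chaperones, vehicle replicate 4 stood high for Hspa5 (1100 CPM, next library 765 CPM), Dnajb11 (139.8 CPM, next 102 CPM), Dnajc3 (132 CPM, next 105.5 CPM) and Hyou1 (257 CPM, next 209 CPM). It stood high for the disulfide isomerases Pdia4 (145.5 CPM, next 113 CPM) and P4hb (479.9 CPM, next 394.5 CPM), and for the ERAD genes Edem1 (357 CPM, next 299 CPM) and Selenos (94.1 CPM, next 62.1 CPM). It stood low for Xbp1 (129 CPM, next 145 CPM), Ssr1 (192 CPM, next 197 CPM) and Ostc (53.7 CPM, next 72.2 CPM). The members' share of counts was also high there, at 0.694%, against 0.601% in the next vehicle library. The remaining case was dimethyl succinate replicate 1, high for Hyou1 at 226 CPM, against 212 CPM in the next treated library.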

How the results depend on the processing

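No member was called under any setting run. Over all genes, edgeR called 0, and 6 without a low-count filter, 4 in DESeq2, 1 with the replicate number as a block and 0 to 28 with each library left out, the 28 being without vehicle replicate 4. Same-numbered libraries deviated together with correlations of -0.014, 0.0112, 0.0557 and 0.13, against -0.118 to 0.086 for libraries of different numbers. The main fit took no pairs, but these values do not settle whether the numbers mark pairs. Under the replicate block the median member log2 fold change was -0.0605 and 2 members had an unadjusted p under 0.05 in edgeR, 0 adjusted. Over all genes 987 had such a p under the block, against 805 in the main fit. With each library left out, the median member ranged from -0.0676 to -0.0177, members above 0 from 6 to 15, and members with groups that did not overlap from 0 to 1, in each case with vehicle replicate 4 left out at the end nearer to equality or at the higher count. A member without overlap also appeared without dimethyl succinate replicate 4 and without vehicle replicate 1 (1 each). With library totals alone as scaling, 11 members lay above 0. The filter at 1 CPM left out Derl3 and tested 31 members. The widest intervals were those of Derl3, with 5 to 22 counts a library, and Creld2, whose standard error was 0.18 with vehicle replicate 4 and 0.0867 without it. The cause of the shifts between settings was not tested.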
